A study of Drosophila melanogaster with 8 samples.

Results

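Heads of fruit flies carrying the vri allele vriΔ679 were compared with wild type heads. The set of genes described holds those whose levels in one genotype all lay above those in the other, across morning and evening libraries. There were 4 vriΔ679 libraries, 2 at ZT2 and 2 at ZT14, and 4 wild type libraries at the same times, whose label gives the strain w1118. ZT is the time in hours after lights on, so ZT2 falls in the light phase and ZT14 in the dark phase of a cycle of 12 h light and 12 h dark at 25 °C, to which all flies had been entrained for 3 days. The labels give no sex, age or crossing history, and no strain for the vriΔ679 flies, so any stock difference and any effect of vri cannot be told apart by the design. A gene belongs to the set described when all 4 of its values in one genotype lie above all 4 in the other, on the scale of FPKM (fragments per kilobase of transcript and M mapped reads, where M stands for 1e6) summed per gene. Of 16727 gene symbols listed, 1594 met this rule, and 1302 of them passed a filter of 1 FPKM in at least 2 libraries, out of 10122 genes that passed it in all.

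vri encodes a bZIP transcription factor of the circadian clock that represses Clk, and its own transcription is driven by CLK and CYC, so its level cycles over the day. Laboratory stocks also differ at many loci unrelated to the allele under study, through linked variants, duplicated genes and transposon insertions, and such differences need not follow the clock. w1118 is itself an allele of white (w), the gene of an ABC transporter that loads eye pigment precursors, and w is a common marker in stock building.

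Mapped reads numbered 49.3 to 65.4 M per library, and the replicates of a group had a correlation across genes, as log2 values, of 0.979 (vriΔ679 ZT2), 0.967 (vriΔ679 ZT14), 0.985 (wild type ZT2) and 0.987 (wild type ZT14). The labels do not say whether replicates are separate cultures, so p-values measure the spread between these samples. One library went against its label. Transcripts of vri that begin at the downstream start made up 0.504 and 0.275 % of vri FPKM in the vriΔ679 ZT2 libraries and 1.00 % in vriΔ679 ZT14 replicate 1, but 74.1 % in the library labelled vriΔ679 ZT14 replicate 2, against 95.5 to 99.6 % in wild type. Over genes that were called, did not overlap and differed by at least 1 (log2) when that library was left out, its median position between the genotypes was 1.00 on a scale where wild type is 0 and vriΔ679 is 1, and 66 of 76 such genes lay nearer to the vriΔ679 mean. The same position, over 63 to 92 genes chosen alike without each library, was 0.84 to 1.05 for the other 3 vriΔ679 libraries and 0.01 to 0.04 for the wild type libraries. By these genes the library stood with vriΔ679, and by the vri transcripts it stood between the genotypes.

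The rule itself chose the genes that follow, so their separation is a description. The 4 values of each genotype did not overlap in 1302 tested genes, 12.9 % of all tested, with 662 higher in vriΔ679 (6.54 %) and 640 lower (6.32 %). Of these, 104 reached 1 FPKM in one genotype only, against 261 of all tested genes, and had passed the filter through that genotype. Most separations were small: the median absolute difference was 0.43 on the log2 scale, the 90th percentile was 1.11, and the median ratio across the gap was 1.07. Just inside the rule stood SmE, with a ratio of 1.00006 between the nearest libraries of both genotypes, and Prosbeta5 with 1.00007. Just outside stood shf with 0.99998 and CG4424 with 0.99991. A gap of at least 1.5 times was left in 109 genes, 55 higher and 54 lower.

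A limma fit with genotype and time as terms, on log2(scaled FPKM + 0.5), called 208 genes at an adjusted p under 0.05 (2.05 % of those tested), with 106 higher in vriΔ679 (1.05 %) and 102 lower (1.01 %). At an unadjusted p under 0.05 there were 2112 (20.9 %). Both the call and the separation of values were met by 182 genes (1.80 %), 91 in each direction. The calls fell to 116 without the library labelled vriΔ679 ZT14 replicate 2, and to 79 to 88 without any one wild type library. They were 124 without vriΔ679 ZT2 replicate 2 and 249 without vriΔ679 ZT14 replicate 1. A fit of the 4 groups, which keeps changes between the times out of the spread, called 1424 genes, 594 higher and 830 lower. Library weights gave 818, 422 higher and 396 lower. The weights were 0.09 and 0.23 for the vriΔ679 ZT14 libraries and 0.94 to 3.27 for the others. For vriΔ679 that fit therefore rests mostly on ZT2. Without scaling the same fit called 190 genes higher and 87 lower, and after scaling to equal totals it called 167 higher and 90 lower, so the balance of both directions depended on the scaling and the fit. Of the 208 genes, 40 were called in every alternative setting and with any single library left out. Genes that failed a filter of 5 FPKM, used in 1 setting, were not tested there and so are not among the 40. CG13659 and CG14780, for example, kept their calls in every setting that tested them. All 40 had values that did not overlap, and 20 stood higher and 20 lower in vriΔ679.

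**Figure D1:**
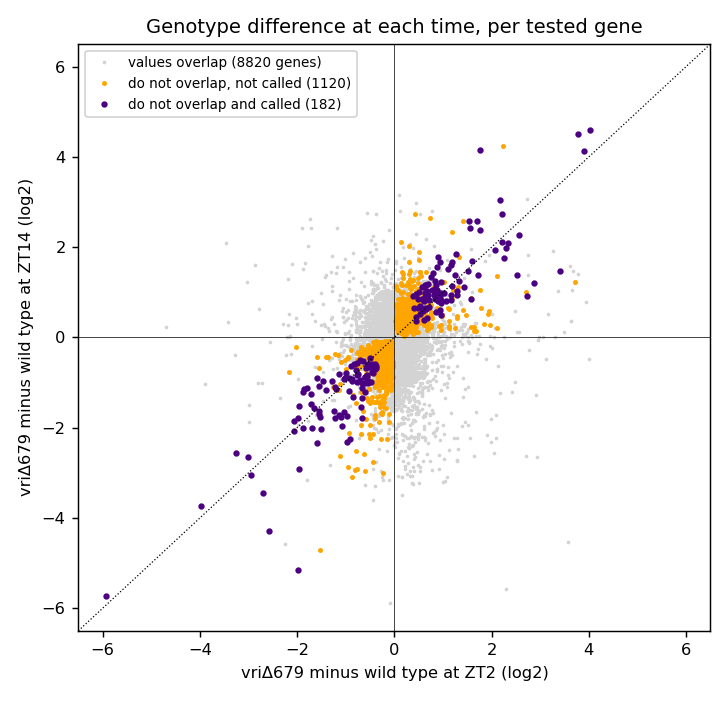
Each point is a tested gene, with the vriΔ679 minus wild type difference at ZT2 (x axis, log2) against that at ZT14 (y axis, log2), and the dotted line marks equal differences. Points for the 182 genes that were called and did not overlap lie at the lower left and upper right by construction, and the grey points, which overlap, spread to all sides of the origin.

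The differences at the 2 times come from libraries that share no sample, so genes chosen at one time can be read at the other. At ZT2, 350 genes did not overlap, 2 libraries against 2, and differed by at least 1 on the log2 scale. At ZT14, 177 of these (50.6 %) did not overlap in the same direction and 77 (22.0 %) in the opposite one, where 63.2 % of all tested genes did not overlap in either direction. The choice at ZT14 took 848 genes, of which 296 (34.9 %) were separated in the same direction at ZT2 and 223 (26.3 %) in the opposite one, against 57.7 % of all tested genes in either direction. Across all tested genes the differences at the 2 times correlated at r = 0.14, a description, since the genes are not independent. A test of genotype by time called 835 genes (8.25 %). The fit of genotype and time counts such changes as spread, so its 208 calls favour genes with even differences by construction.

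The widest separations were between genes that were near zero in one genotype. Mec2, a gene of the stomatin family named after mec-2 of Caenorhabditis elegans, stood at 9.62 and 7.94 FPKM at ZT2 and 14.1 and 9.53 FPKM at ZT14 in vriΔ679, against 0.0235 and 0.108 FPKM at ZT2 and 0 and 0 FPKM at ZT14 in wild type. All 4 vriΔ679 libraries expressed it, and wild type libraries were at or near the level of a few reads. CG5391 had the reverse pattern, with 0.203 and 0 FPKM at ZT2 and 0.114 and 0 FPKM at ZT14 in vriΔ679, against 35.1 and 36.5 FPKM at ZT2 and 28.0 and 29.5 FPKM at ZT14 in wild type. The log2 difference was 4.32 ± 0.18 (SE) for Mec2 and -5.83 ± 0.14 for CG5391, with limma adjusted p of 2.97e-05 and 2.04e-06. These log2 values include the pseudocount of 0.5 and so understate the change of genes near zero. Both genes were chosen for their separation and passed the filter only through the genotype where they were high. Their p-values are therefore no separate support for the separation. The same holds for genes below whose values in 1 genotype all lie under 1 FPKM.

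Further genes stood higher in vriΔ679 at both times. CG8757, which RefSeq lists with the synonym FOHSDR, had 14.2 and 13.1 FPKM at ZT2 and 21.0 and 23.0 FPKM at ZT14 in vriΔ679, against 0.461 to 0.573 FPKM in the 4 wild type libraries. CG14780, on X, had 2.82 and 2.14 FPKM at ZT2 and 6.40 and 4.16 FPKM at ZT14 in vriΔ679, against 0.105 to 0.209 FPKM in wild type. ImpL1, on 3L, had 1.76 to 3.26 FPKM in vriΔ679 and 0.107 to 0.180 FPKM in wild type. Neither of these low genes shared any value between the genotypes. The noncoding gene CR34335, on X, was the most abundant of the set, at 1884 and 3518 FPKM (ZT2) and 3991 and 2729 FPKM (ZT14) in vriΔ679, against 440 and 692 FPKM (ZT2) and 440 and 563 FPKM (ZT14) in wild type. Its difference was 2.47 ± 0.27 on the log2 scale, a ratio of means of 5.68. CG31955, on 2L, stood at 21.6 to 30.3 FPKM in vriΔ679 and 3.85 to 6.32 FPKM in wild type. Drsl5, a member of the drosomycin-like family of antimicrobial peptides, had 614 and 800 FPKM at ZT2 and 680 and 495 FPKM at ZT14 in vriΔ679, against 227 and 203 FPKM at ZT2 and 113 and 83.0 FPKM at ZT14 in wild type.

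Another group of genes stood lower in vriΔ679 at both times. CG6084 (Akr1B in RefSeq, an aldo-keto reductase) had 21.9 and 17.1 FPKM at ZT2 and 8.18 and 4.53 FPKM at ZT14 in vriΔ679, against 139 and 100 FPKM at ZT2 and 125 and 134 FPKM at ZT14 in wild type. The gene was lower in all 4 vriΔ679 libraries, by 9.63 times between means, and further down at ZT14. w stood at 0.0337 and 0.0502 FPKM (ZT2) and 0.0337 and 0.0816 FPKM (ZT14) in vriΔ679, against 2.12 and 4.22 FPKM (ZT2) and 5.97 and 5.23 FPKM (ZT14) in wild type, a log2 difference of -3.07 ± 0.24. Transcripts of w were therefore detected in the strain labelled w1118 and were near the level of a few reads in vriΔ679. CG8539, on 3L, had 2.19 to 6.17 FPKM in vriΔ679 and 18.9 to 26.8 FPKM in wild type. CG32581 (sordd2), on X, had 36.4 and 34.4 FPKM at ZT2 and 28.6 and 33.4 FPKM at ZT14 in vriΔ679, against 151 and 148 FPKM at ZT2 and 134 and 128 FPKM at ZT14 in wild type. Its difference of -2.07 was among the most even of the set, with -2.07 at each time. Its neighbour CG8974 (sordd1) is a paralogue, and reads shared by the pair could have been split between them. CG8974 was also separated lower in vriΔ679, and the splitting of reads was not tested. Obp99b, an odorant-binding protein, was less stable: it had 8.87 to 51.5 FPKM in vriΔ679 and 143 to 626 FPKM in wild type (-3.57 ± 0.67, limma adjusted p = 0.0490), and leaving out any one of the 8 libraries ended its call.

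**Figure D2:**
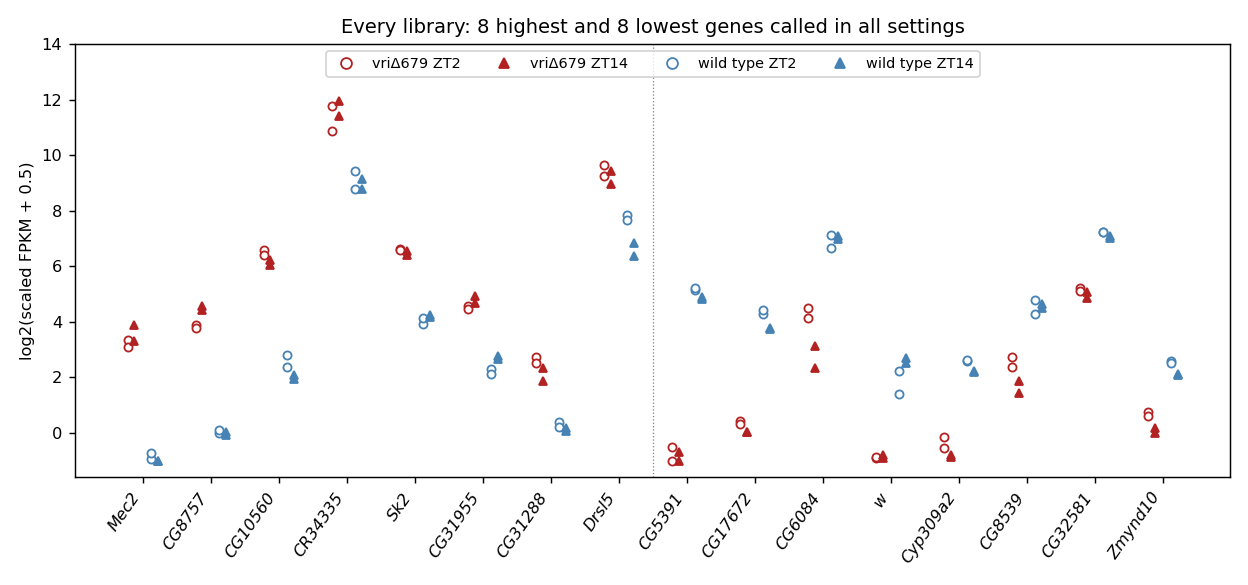
Each point is one library, on the y axis as log2(scaled FPKM + 0.5), for the 8 genes with the highest and the 8 with the lowest difference among those called in every setting (left and right of the dotted line), with vriΔ679 left of wild type for each gene. These genes all met the non-overlap rule, so the gap between the 4 vriΔ679 points and the 4 wild type points follows from the choice. For Sk2 the values were 84.5 to 97.8 FPKM in vriΔ679 and 14.6 to 18.6 FPKM in wild type.

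Smaller separations that held in every setting included genes of known function, named here after their values were seen. Tequila, a serine protease gene studied for long-term memory, had 56.7 and 45.1 FPKM at ZT2 and 33.9 and 29.9 FPKM at ZT14 in vriΔ679, against a mean of 14.3 ± 3.80 FPKM (SD, n = 4) in wild type. It was lower at ZT14 than at ZT2 in both genotypes, and its genotype difference was 1.51 at ZT2 and 1.48 at ZT14 (log2). CG30424 (cGlr2, of the family of cGAS-like receptors that sense nucleic acid) had 12.5 to 12.9 FPKM in vriΔ679 and 6.32 to 7.54 FPKM in wild type. Pex3, required to build peroxisomes, had 27.0 to 31.8 FPKM in vriΔ679 and 16.3 to 18.0 FPKM in wild type. Cks30A, a Cdk1-binding subunit used in female meiosis, had 5.02 to 7.00 FPKM in vriΔ679 and 0.903 to 2.89 FPKM in wild type. pit, a DEAD-box helicase gene, was lower, at 7.40 to 7.92 FPKM in vriΔ679 and 12.8 to 13.7 FPKM in wild type. Cyp12a5, a mitochondrial P450, stood at 4.83 to 5.19 FPKM in vriΔ679 and 10.9 to 19.6 FPKM in wild type.

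Metallothioneins, which bind heavy metals, were picked out after their values were seen, and MtnF, MtnE and MtnD were higher in vriΔ679. Apart from MtnA, values of other members are not given here, so these genes do not stand for the whole family. MtnF, listed as CG43222, had 26.6 and 30.5 FPKM at ZT2 and 48.1 and 37.1 FPKM at ZT14 in vriΔ679, against 11.8 to 13.0 FPKM in wild type, and was called in every setting. MtnE had 2.09 to 3.58 FPKM in vriΔ679 and 0.663 to 1.61 FPKM in wild type. MtnD had 5.84 and 13.0 FPKM at ZT2 and 1.97 and 1.99 FPKM at ZT14 in vriΔ679, against 0.372 to 1.87 FPKM in wild type. MtnD and MtnE lie within 1.28 kb on 3R. The call of MtnD (limma adjusted p = 0.0431) ended without any one of the 8 libraries, and that of MtnE (0.0305) without any one of 7. MtnA had values that overlapped, with 1285 to 2155 FPKM in vriΔ679 and 922 to 1479 FPKM in wild type.

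Among lists of genes grouped by function, the visible marker genes used in stock building had 2 of 19 tested members called, both lower, namely w and e, against 2.05 % of all tested genes called. e encodes the enzyme that joins beta-alanine to dopamine in pigment synthesis, and stood at 22.6 and 34.4 FPKM (ZT2) and 13.0 and 10.2 FPKM (ZT14) in vriΔ679, against 55.2 and 50.1 FPKM (ZT2) and 21.1 and 25.8 FPKM (ZT14) in wild type. It was lower within each time, but its values overlapped across times, and its call (-0.95 ± 0.15, limma adjusted p = 0.0290) ended without any one of 6 libraries. Of 15 clock genes tested, vri and Pdfr, the receptor of the neuropeptide Pdf, were called lower and dysc was called higher, while none of the 15 had values that did not overlap. The call of Pdfr ended without any one of the 8 libraries, that of dysc without any one of 5 and that of vri without any one of 3. vri stood at 3.62 and 4.27 FPKM (ZT2) and 21.7 and 40.4 FPKM (ZT14) in vriΔ679, against 10.1 and 10.7 FPKM (ZT2) and 85.6 and 72.4 FPKM (ZT14) in wild type. The day-night range of vri was wider than the gap between the genotypes, so the gene altered in vriΔ679 falls outside the non-overlap rule itself.

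P450 genes had 4 of 70 tested members called (5.71 %), all lower, against 2.05 % of all tested genes called. The list's median difference was 0.08 on the log2 scale, against -0.02 over all genes tested. The 4 were Cyp309a2, Cyp316a1, Cyp12a5 and Cyp28d1. GST and UGT genes, of conjugation, had 3 of 39 called, all higher (GstE5, GstZ2 and Ugt86De), against 2.05 % of all tested genes called in either direction. The call of Ugt86De ended without any one of the 8 libraries. GstZ2 had 49.1 and 43.1 FPKM at ZT2 and 27.3 and 24.1 FPKM at ZT14 in vriΔ679, against 23.0 and 23.9 FPKM at ZT2 and 15.0 and 14.9 FPKM at ZT14 in wild type. Chemosensory receptors and binding proteins had 5 higher and 3 lower of 60 (13.3 % called, against 2.05 % of all tested genes). Each of these calls ended without any one of 5 to 8 libraries. Or13a, an odorant receptor, had 1.30 to 2.33 FPKM in vriΔ679 and 0.556 to 0.857 FPKM in wild type, and Ir76a, an ionotropic receptor, had 1.82 to 3.38 FPKM in vriΔ679 and 0.436 to 1.08 FPKM in wild type. Their calls ended without any one of 5 (Or13a) or 7 (Ir76a) libraries. Cuticle protein genes had 2 higher and 2 lower of 50, antimicrobial peptides 1 higher of 16 (Drsl5), Turandot genes 1 higher of 4 (TotX), and the gut enzyme genes none of 6. Noncoding RNA genes had 9 higher and 6 lower of 387 (3.88 % called), and genes known by a CG number only had 63 higher and 60 lower of 4506 (2.73 %). Genes with a CG number made up 58.8 % of the 182 genes called and not overlapping, and 44.5 % of all genes tested.

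No cell type marker passed the test, but some were separated by genotype, where 12.9 % of all tested genes were. Neuronal markers, expected in heads, summed to 1110 to 1767 FPKM in vriΔ679 and 1558 to 1635 FPKM in wild type. All 6 glial markers were separated by genotype, 5 of them lower in vriΔ679 (repo, Gs2, Eaat1, moody and nrv2) and wrapper higher, and their summed level was 812 to 1120 FPKM in vriΔ679 and 1189 to 1472 FPKM in wild type. repo, the transcription factor of glial fate, stood at 12.2 to 14.4 FPKM in vriΔ679 and 16.2 to 18.3 FPKM in wild type, with a limma adjusted p of 0.0897. In these whole-head samples, fewer cells of a type and less RNA per cell cannot be told apart. Muscle markers had 1 of 8 separated, lower in vriΔ679 (up), with sums of 4250 to 5686 FPKM in vriΔ679 and 5259 to 9291 FPKM in wild type. Photoreceptor markers also had 1 of 8 (chp, lower), and both counts are near that share. The photoreceptor markers had sums of 28266 to 42542 FPKM in vriΔ679 and 22896 to 34525 FPKM in wild type. None of 8 neuronal, 6 tested fat body, 6 tested hemocyte, 4 female or 3 male markers was separated. The sums of the female markers were 1686 to 10289 FPKM in vriΔ679 and 3343 to 13228 FPKM in wild type, and those of the male markers 77.1 to 224 FPKM in vriΔ679 and 42.3 to 93.4 FPKM in wild type. Accessory gland genes summed to at most 1.10 FPKM in vriΔ679 and 0.556 FPKM in wild type, with 4 of 10 at 0 in every library. Of the testis and the germline and ovary markers, 1 of each was tested, and the testis marker betaTub85D was separated higher, at 1.12 to 1.54 FPKM in vriΔ679 and 0.941 to 1.08 FPKM in wild type. The part of cell makeup or sex in the genes above was not tested.

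The second question was whether the separated genes gather along the chromosomes. The share of tested genes that did not overlap was 13.9 % on X, 12.8 % on 2L, which holds vri, 11.7 % on 2R, 14.1 % on 3L, and 12.4 % on 3R, with 9 of 90 genes on the small chromosome 4, all higher in vriΔ679, against 12.9 % overall. Without vriΔ679 ZT14 replicate 1 the share on chromosome 4 was 30.7 %. Called genes were more uneven, at 2.26 % on X, 1.74 % on 2L, 1.05 % on 2R, 2.70 % on 3L, 2.56 % on 3R and 0 of 90 on chromosome 4. The 40 genes called in every setting, including the filter of 5 FPKM, held 8 on 2L, 1 on 2R, 14 on 3L, 10 on 3R and 7 on X. No arm difference was tested. In bins of 1 Mb with at least 10 tested genes, the share ranged between 0 and 30.0 % over 122 bins, with a median of 12.9 %. The highest were 6 of 20 genes at 22 to 23 Mb on X, 18 of 68 at 19 to 20 Mb on 3R (26.5 %) and 19 of 79 at 7 to 8 Mb on 3L (24.1 %). Each mixed both directions: 3 higher and 3 lower on X, with 0 called, 7 and 11 on 3R, and 7 and 12 on 3L. Between ZT14 and ZT2, where 9.02 % of tested genes were separated, the median bin had 8.86 % and the highest 16.7 %.

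**Figure D3:**
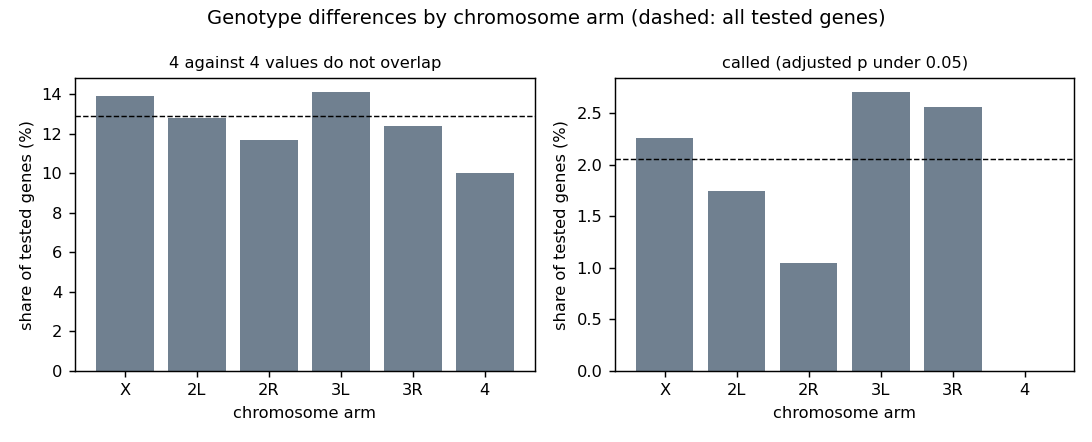
Bars give, for each chromosome arm, the share of tested genes (y axes, %) whose 4 values per genotype do not overlap (left) and that were called (right), and dashed lines give the share over all tested genes. On the left 2R has 11.7 % and 3L 14.1 %, and on the right 2R has 1.05 % and 3L 2.70 %.

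Neighbouring genes shared a direction more often than they opposed each other. The next tested gene along the arm was separated in the same direction for 152 of 1301 genes (11.7 %) and in the opposite direction for 76 (5.84 %). At the second neighbour the shares were 8.93 and 6.62 %, at the fifth 6.09 and 7.56 %, and at the tenth 7.80 and 6.33 %. The contrast between ZT14 and ZT2, taken over the same 8 libraries, served as a yardstick: 913 genes did not overlap between the times (9.02 %), and limma called 211 (2.08 %). For these the next gene had the same direction in 8.54 % and the opposite in 4.60 %. At the 50th neighbour the same-direction share was 6.68 % for genotype and 4.82 % for time, where fewer genes were separated. The log2 differences of next neighbours correlated at r = 0.10 across genes in both contrasts. An excess at the nearest neighbour was thus present in both contrasts, and the difference between them was not tested. Neighbours with overlapping spans shared the direction in 13.8 % of 225 pairs, those up to 1 kb apart in 12.2 % of 650, and those over 20 kb apart in 10.3 % of 87. Genes whose exons overlap can share reads, since the strand setting of the counting is not given in the sources used here.

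**Figure D4:**
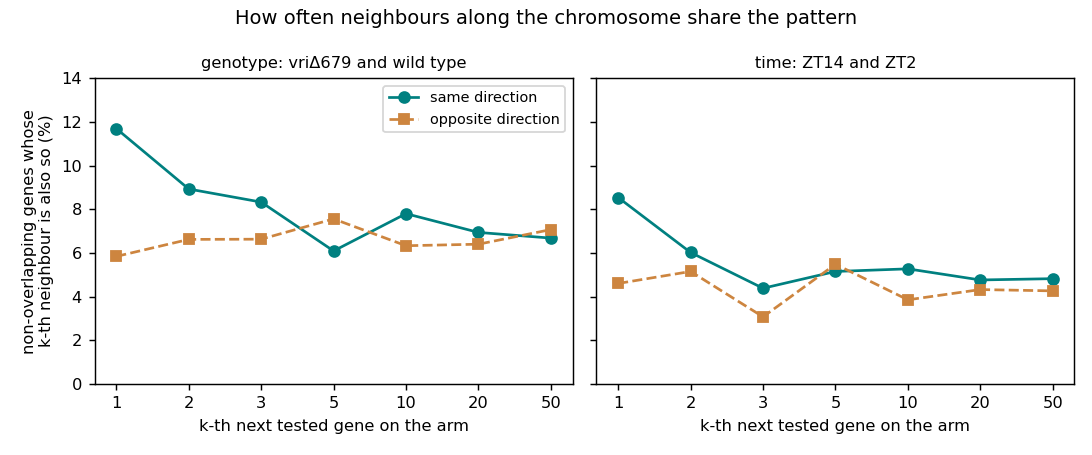
The x axis is the distance in tested genes along the arm, and the y axis is the share (%) of non-overlapping genes whose neighbour at that distance is also non-overlapping, in the same (circles) or the opposite (squares) direction, for genotype (left) and for time (right). The same-direction share is highest at the next gene in both panels, at 11.7 % for genotype and 8.54 % for time.

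Runs of at least 3 consecutive tested genes, all separated in one direction, numbered 20 and held 67 genes (5.15 % of the separated ones), the longest with 5. For time there were 9 runs with 29 genes (3.18 %), the longest with 4. With overlapping genes joined to 1 locus, the longest run had 5 loci for genotype and 6 for time. Chains of called genes no more than 20 kb apart numbered 18 and held 51 of the 208 (24.5 %). Tested genes are dense: of 1301 separated genes, 650 had the next tested gene up to 1 kb away and 87 over 20 kb away. Chains were not counted for time, so whether 24.5 % is unusual was not tested. The 5 chains with at least 3 called genes are described next.

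The longest chain lay on 3R at 25270231-25320101 (dm6), with 10 called genes among 19 tested, 9 higher and 1 lower in vriΔ679, where 2.05 % of all tested genes were called. It lies in an array of genes of the ecdysteroid kinase-like family, which reaches from CG11889 to CHKov2 over 61.0 kb, and whose insect members include enzymes that phosphorylate ecdysteroids. Of 23 tested genes of the array, 9 were separated higher and 2 lower in vriΔ679 (47.8 %, against 12.9 % of all tested genes), and the median difference was 0.49 on the log2 scale. A chain is made of called genes, and the array around it was picked after the data were seen. Both shares are therefore raised by the choice and are no test of enrichment. CG10560 (3R 25318550-25320101) had 95.0 and 83.3 FPKM at ZT2 and 74.2 and 65.3 FPKM at ZT14 in vriΔ679, against 6.41 and 4.67 FPKM at ZT2 and 3.32 and 3.77 FPKM at ZT14 in wild type. That is a ratio of means of 17.5 and a difference of 4.01 ± 0.12 (log2, limma adjusted p = 6.30e-06), with 3.90 at ZT2 and 4.12 at ZT14.

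Its direct neighbours in the array did not follow it. CG10553 had 60.1 to 91.0 FPKM in vriΔ679 and 63.3 to 107 FPKM in wild type, and CG10562 had 11.3 to 21.8 FPKM in vriΔ679 and 15.6 to 27.4 FPKM in wild type. In the middle of the array CG31288 (3.19 to 6.11 FPKM in vriΔ679, 0.556 to 0.826 FPKM in wild type) and CG13659 (4.28 to 4.95 FPKM in vriΔ679, 0.680 to 0.967 FPKM in wild type) stood next to each other, with differences of 2.14 and 2.00. CG11893, only a few genes away, was lower, at 4.36 to 5.63 FPKM in vriΔ679 and 12.2 to 19.4 FPKM in wild type (-1.61 ± 0.17). Members with large differences thus stood among members with small ones. CG11891 had 52.7 and 48.7 FPKM at ZT2 and 111 and 94.2 FPKM at ZT14 in vriΔ679, against 18.0 and 11.9 FPKM at ZT2 and 6.25 and 4.47 FPKM at ZT14 in wild type, but its span overlaps that of CG11889 and its call ended without any one of 5 libraries. The call of CG10514 ended without any one of 7 libraries, that of CG31370 without any one of 8 and that of CG10559 without any one of 6, while the other 6 called members were called with any library left out. Members of this family are related in sequence, so reads that match several of them could have been split by the authors' counting.

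The second chain was unbroken: all 5 tested genes of 3L 3047087-3070839 were separated and called higher in vriΔ679. Sk2, a sphingosine kinase, had 97.8 and 95.3 FPKM at ZT2 and 84.5 and 92.1 FPKM at ZT14 in vriΔ679, against 14.6 and 17.3 FPKM at ZT2 and 18.6 and 17.5 FPKM at ZT14 in wild type, 5.43 times more between means (2.41 ± 0.10, limma adjusted p = 3.15e-05). CG32485 had 117 to 142 FPKM in vriΔ679 and 58.0 to 71.4 FPKM in wild type (1.05 ± 0.11). CG1271 followed with 24.7 to 28.4 FPKM in vriΔ679 and 13.1 to 14.9 FPKM in wild type (0.94 ± 0.09). CG16753 had 9.41 to 12.9 FPKM in vriΔ679 and 3.78 to 6.01 FPKM in wild type (1.11 ± 0.16), and CG32486 had 204 to 263 FPKM in vriΔ679 and 112 to 146 FPKM in wild type (0.88 ± 0.10). Sk2 thus differed more than its 4 neighbours. None of the 5 spans overlapped another, and the run was complete under each of 3 other scalings. CG16753 lost its call without any one of 4 libraries. The flanking genes Jafrac2, scramb2 and CG11486 had values that overlapped.

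The third chain, on 3L at 7335442-7364366, held eco, a cohesin acetyltransferase, CTCF, an insulator protein, and Sec63, of the protein translocation channel, all higher in vriΔ679, and CG8596 (Cln7), which was lower. CTCF had 16.8 and 16.6 FPKM at ZT2 and 25.8 and 22.2 FPKM at ZT14 in vriΔ679, against 8.89 to 9.91 FPKM in wild type. eco had 11.6 to 18.9 FPKM in vriΔ679 and 7.34 to 7.70 FPKM in wild type, and CG8596 had 14.1 to 20.3 FPKM in vriΔ679 and 28.1 to 40.6 FPKM in wild type. Both directions occurred within 28.9 kb, and between them lay qm, at 31.1 to 39.4 FPKM in vriΔ679 and 34.4 to 38.0 FPKM in wild type. The call of CTCF ended without wild type ZT14 replicate 1 (limma adjusted p = 0.0518), that of Sec63 without any one of 3 libraries, that of eco without any one of 5 and that of CG8596 without any one of 7.

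The fourth chain, on 2L at 2551145-2573037, was lower in vriΔ679. Cyp309a2, a P450, stood at 0.405 and 0.182 FPKM (ZT2) and 0.0551 and 0.0705 FPKM (ZT14) in vriΔ679, against 5.49 and 5.62 FPKM (ZT2) and 4.09 and 4.19 FPKM (ZT14) in wild type. CG3515 had 0.0355 to 0.0768 FPKM in vriΔ679 and 2.69 to 4.94 FPKM in wild type, and the noncoding CR44113 had 0.0886 to 0.122 FPKM in vriΔ679 and 2.99 to 5.47 FPKM in wild type. CG3515 and CR44113 were near the level of a few reads in vriΔ679, while Cyp309a2 was low there but detected. Cyp309a1, between them, was not separated: it had 21.3 and 8.42 FPKM at ZT2 and 1.5 and 0.736 FPKM at ZT14 in vriΔ679, against 9.26 to 10.3 FPKM in wild type.

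The fifth chain, on 3L at 13024763-13036504, was also lower in vriΔ679 and was part of a run of 5 genes. CG17672 had 0.517 to 0.852 FPKM in vriΔ679 and 13.0 to 20.8 FPKM in wild type (-3.86 ± 0.10, limma adjusted p = 2.04e-06). Zmynd10, needed to assemble the dynein arms of motile cilia, had 0.499 to 1.17 FPKM in vriΔ679 and 3.70 to 5.45 FPKM in wild type, and the noncoding CR45172 had 0 to 0.0826 FPKM in vriΔ679 and 1.27 to 2.03 FPKM in wild type. CR45172 overlaps CG17672 on the opposite strand, so their values are uncertain where reads could be shared. SRm160, a splicing coactivator at the end of the run, was separated by little, at 14.0 to 17.4 FPKM in vriΔ679 and 17.7 to 21.1 FPKM in wild type, and was not called. The run of 5 was broken under each of the 3 other scalings.

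**Figure D5:**
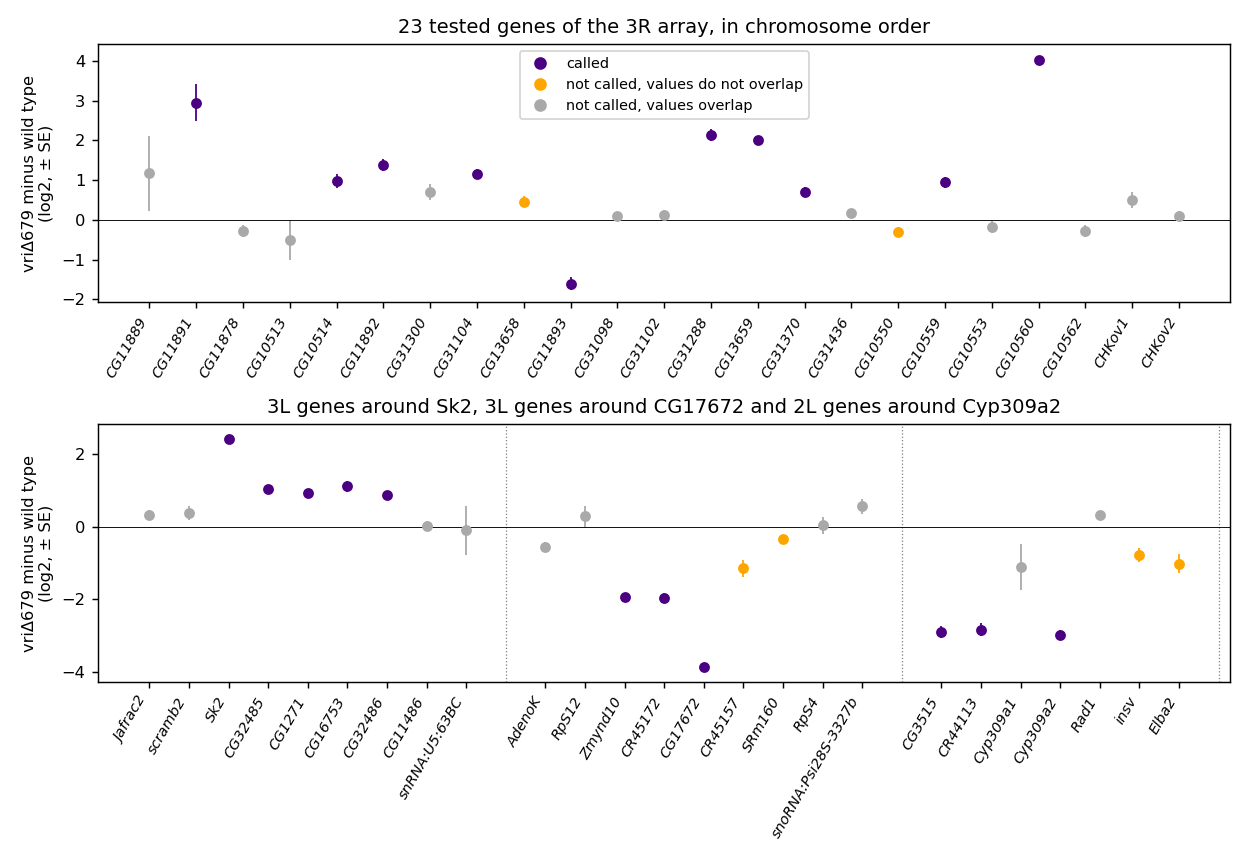
Points give the vriΔ679 minus wild type difference (y axis, log2, with SE bars) of tested genes in chromosome order, for the 3R array (top) and for genes around Sk2, CG17672 and Cyp309a2 (bottom), coloured by whether the gene was called or its values overlap. In the 3R array called genes at up to 4.01 stand among genes near 0, and around Sk2 the 5 called genes are adjacent.

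Shorter groups of neighbours were also found. On 3L at 7491864-7498831, Cyp316a1 (0 to 0.258 FPKM in vriΔ679, 1.57 to 2.39 FPKM in wild type), Cyp4d8 and CG8539 were all separated lower, and Cyp4d8 was not called. On 2R at 20504251-20506895, the odorant-binding protein genes Obp57b and Obp57a were separated higher together with the noncoding CR44644 and CR44645. Obp57b had 60.8 to 105 FPKM in vriΔ679 and 41.3 to 60.4 FPKM in wild type, and Obp57a had 8.85 to 13.2 FPKM in vriΔ679 and 5.37 to 7.77 FPKM in wild type. Of the 4 only Obp57b was called, and leaving out any library ended that call. On 2L at 9327039-9331981, Cks30A was separated higher beside CG17005 and CR45457, which were not called. On 3R, Obp99d was higher, at 19.7 to 44.9 FPKM in vriΔ679 and 3.35 to 10.7 FPKM in wild type, within 2.39 kb of Obp99b, which was lower, and its call ended without any one of 6 libraries. On 2R at 6684745-6699469, Tdc2, the neuronal tyrosine decarboxylase, CG3270, Mob4 and Rab2 were all separated lower, but only CG3270 was called, and its call ended without any one of 7 libraries. The run of these 4 was broken under each of the 3 other scalings, and Rab2 stood at 151 to 181 FPKM in vriΔ679 and 182 to 197 FPKM in wild type. On X at 9082931-9089314, none of APC4, CG32708, CG32706 and CG6999, all separated higher, was called.

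The surroundings of vri itself (2L 5288944-5311223) were read without vri. Within 50 kb on each side 2 of 13 tested genes were separated, and CG14022 was called, with 41.9 to 61.5 FPKM in vriΔ679 and 23.5 to 30.6 FPKM in wild type (0.96 ± 0.13, limma adjusted p = 0.0143). Its call ended without any one of 3 wild type libraries. Within 500 kb, 18 of 109 were separated (16.5 %) and 4 were called (3.67 %), 2 of them lower. One of these 2 was Cyp28d1, at 38.5 to 66.3 FPKM in vriΔ679 and 78.6 to 123 FPKM in wild type, whose call ended without any one of 5 libraries. Within 2 Mb the shares were 16.3 and 2.45 %, against 12.9 and 2.05 % over all tested genes. Around w, none of 3 tested genes within 50 kb was separated, and within 500 kb 7 of 56 were (12.5 %), with 5 called (8.93 %). Each of these 5 calls ended without any one of 6 to 8 libraries. One of the 5 was CG2650, which RefSeq names dyw, with 78.1 and 161 FPKM at ZT2 and 18.9 and 7.48 FPKM at ZT14 in vriΔ679, against 23.9 and 34.5 FPKM at ZT2 and 2.85 and 3.19 FPKM at ZT14 in wild type. It was higher within each time and lower at ZT14 in both genotypes, and its values overlapped across times.

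Other features of the separated genes differed between the directions. Noncoding genes made up 5.44 % of the genes separated higher in vriΔ679 and 2.03 % of those separated lower, against 3.82 % of all tested genes. The median level was 9.41 FPKM in the genes separated higher and 19.1 FPKM in those separated lower, against 14.3 FPKM in all. Level is the mean of the same 8 values that the rule compared, so it is not independent of the rule. Genes whose span overlaps another numbered 331 of the 662 separated higher and 273 of the 640 separated lower (42.7 %), against 50.8 % of all. Those separated lower in vriΔ679 had a median transcript length of 2321 nt and those separated higher 1350 nt, against 1962 nt in all. The 91 genes called and separated by at least 1 on the log2 scale were lower in level, with a median of 3.90 FPKM, and 11.0 % of them were noncoding. A transposable element annotated in the reference genome lay in or within 1 kb of the span of 11.6 % of the separated genes and 12.1 % of those 91, against 13.8 % of all tested genes. The annotation describes the reference strain, and insertions in these stocks were not analysed here.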

How the data were processed

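Poly(A) RNA of heads was sequenced as 75 nt single-end reads, 4 libraries to a run, per the labels' protocols, which do not say which libraries shared a run. STAR 2.6.1d, StringTie and the build dm6 are named in the submitters' processing notes. The authors deposited, per the file headers, FPKM for 35411 transcripts in every library. The coverage (signal) column deposited beside it gave the read depth only. A transcript of 3 kb with 3 reads would have 0.0153 to 0.0203 FPKM.

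FPKM was summed per gene symbol, scaled with median-of-ratios factors of 0.972 to 1.041 from 12078 genes, and tested with limma 3.58.1 (R 4.3.3, statmod 1.5.0) on log2(FPKM + 0.5) with eBayes trend and robust options. The terms were genotype and time, and Benjamini-Hochberg adjustment ran over all 10122 genes tested. Levels in the text are scaled FPKM, differences are vriΔ679 minus wild type, and a called gene has an adjusted p under 0.05. Genotype by time came from a fit of the 4 groups. Separation, runs, bins and shares by arm are descriptions without a test. RefSeq accessions matched 93.2 % of transcripts, and 25 symbols on 2 or more chromosomes have no position. Coordinates are those of the tables, and elements are from Ensembl BDGP6.54.

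Genes named were the 12 highest and 12 lowest among those called and not overlapping, members of the 5 longest runs, vri, w and genes within 50 kb, the 4 list members with the smallest p where called, the 3 most and 3 least even genes, and up to 3 genes in each of the 3 fullest bins. Chains, the 3R array, the yardstick of time, element annotation and library positions were added after the data were seen. The members and lists were chosen with earlier results of these data known. Fits were tested on simulated data. Sequences are not used here.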

Additional observations from a re-analysis of the deposited data

Results flagged for a closer look

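In 9 named genes the genotype difference itself changed between the times, as a limma test of genotype by time (difference at ZT14 minus difference at ZT2, log2) with an adjusted p under 0.05. Over all tested genes the same test called 835 (8.25 %), and the named genes include the 3 least even by choice. The 9 are therefore listed as single genes, without a claim about the named genes as a set. The change was -3.06 ± 0.58 for Cyp309a1 (adjusted p = 0.0246), whose difference was 0.42 at ZT2 and -2.64 at ZT14, and -3.19 ± 0.68 for Obp99b (0.0392), with -1.98 at ZT2 and -5.16 at ZT14. It was -1.92 ± 0.28 for CG43149 (0.0114), at 10.3 and 11.3 FPKM (ZT2) and 1.80 and 1.06 FPKM (ZT14) in vriΔ679, against 0.5 and 0.646 FPKM (ZT2) and 0.191 and 0.162 FPKM (ZT14) in wild type.

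The change was -1.72 ± 0.40 for CG6084 (adjusted p = 0.0459 by limma) and 0.73 ± 0.17 for CG8757 (0.0455), both of which kept their direction at both times. For Naam it was -1.68 ± 0.16 (0.00273), with 18.7 and 17.3 FPKM (ZT2) and 4.85 and 4.57 FPKM (ZT14) in vriΔ679 and 3.51 to 4.28 FPKM in wild type. In the 3R array it was 2.39 ± 0.32 for CG11891 (0.00877) and 2.54 ± 0.30 for CG10513 (0.00507). CG10513 had 13.8 to 18.3 FPKM in vriΔ679, against 62.5 and 45.5 FPKM (ZT2) and 8.44 and 9.98 FPKM (ZT14) in wild type. CG40486, in the fullest bin of X, changed by 1.98 ± 0.35 (0.0210), with 59.9 and 51.7 FPKM (ZT2) and 159 and 99.1 FPKM (ZT14) in vriΔ679, against 51.3 and 49.8 FPKM (ZT2) and 33.7 and 24.2 FPKM (ZT14) in wild type. Cyp309a1, Naam, CG10513 and CG40486 were not called between the genotypes over both times.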

How the results depend on the processing

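The main counts were 208 called (106 higher, 102 lower in vriΔ679), 182 called and not overlapping, and 26 members of the function lists without the noncoding and CG-number lists. A fit of the 4 groups, which keeps differences between the times out of the residual, called 1424 (594 higher, 830 lower), with 716 not overlapping and 100 list members. Library weights, which were lowest for the vriΔ679 ZT14 libraries (0.09 and 0.23), gave 818 (422 higher, 396 lower), with 455 and 65. FPKM of at least 5 gave 136 (64 higher), with 118 and 16, and left 31 genes in runs. Without the time term 11 list members were called. Without scaling 190 were higher and 105 genes lay in runs, and with equal totals 167 were higher. Separation within each time in the same direction held for 2105 genes, a gap of 1.5 times for 109, runs of genes with a size of at least 1 held 10, and the highest 2 Mb bin reached 19.8 %.

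Replicate numbers are shared across groups, and deviations of same-numbered libraries correlated at -0.14 to 0.27 across genes. The value of 0.27 was between vriΔ679 ZT2 and wild type ZT2, and the other pairs of groups lay between -0.14 and 0.07. The labels do not say whether same-numbered samples shared a run, and a pairing at ZT2 was not tested. With the replicate number as a block, 123 genes were called (60 higher, 63 lower), with 110 not overlapping and 17 list members, and 116 of the 208 were among them.

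Leaving out one library at a time gave 79 to 249 called (39 to 112 higher, 40 to 137 lower), 76 to 214 called and not overlapping, 9 to 21 list members, 82 to 141 genes in runs, 13.8 to 19.0 % on 3R, 10 to 30.7 % on chromosome 4 and 30.0 to 58.8 % in the highest bin. Fewer libraries make separation easier by construction. Of the 208 genes, 65 were called whichever library was left out. In every setting that kept all libraries, including the filter of 5 FPKM, 60 were called. A few uncalled genes changed sign: qm to 0.02 without scaling, and with library weights Cyp309a1 to 0.26, tkv to 0.02, CG14024 to 0.04, TotM to -0.97 and CG32795 to -0.06. With a library left out, Cyp4ac1 ranged between -0.23 and 0.10 (with another reversed value of 0.00), tkv between -0.25 and 0.05, CG14024 between -0.22 and 0.04, TotM between -0.31 and 0.91 (with -0.02 also reversed), and qm between -0.12 and 0.01. The cause of these changes was not tested. Depth limits only genes near 0, where 3 reads set the level.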
